A study of Homo sapiens with 4 samples.

Results

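Endothelial identity genes are the genes by which vascular endothelium is recognised: transcription factors, receptors, junction proteins and a stored clotting protein. The 10 genes followed here were given by name on the question whether the SK-Hep-1 line carries an endothelial programme, and all 10 had a row among the 29670 genes of the linear table. They are ENG, FLI1, ERG, ROBO4, PECAM1, CDH5, KDR, TEK, TIE1 and VWF. The samples are 4 established human lines that the labels call liver cancer lines, SK-Hep-1, HepG2, Hep3B and Huh-7D12, with no treatment named and 1 library per line. The libraries hold ribosome-depleted total RNA that was not selected for poly(A), and both linear and circular RNA were read. With 1 library per line no test, p-value or standard deviation could be given, and all intervals are 95% intervals for counting error only.

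Endothelial identity is built from several layers. ETS-domain transcription factors, FLI1 and ERG among them, bind short GGAA-centred motifs in the promoters and enhancers of endothelial genes. KDR, the main VEGF receptor, the tyrosine kinases TEK and TIE1, the TGF-beta and BMP co-receptor endoglin (ENG) and the SLIT-family receptor ROBO4 take up signals at the cell surface. VE-cadherin (CDH5) and PECAM1 hold endothelial cells to each other, and von Willebrand factor (VWF) is made and stored in them. Several of these genes are also used elsewhere: ENG in mesenchymal stromal cells, FLI1 and PECAM1 in blood cells and platelets, and VWF in megakaryocytes. SK-Hep-1 has been described in the literature as endothelial-like in place of hepatocyte-like, which is the question the members bear on.

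The promoters of the members are shown first, since ETS factors act through such sequence. RefSeq (build GRCh38.p14) gave 10 start sites for 6 of the 10 members. Shown 5′ to 3′ on the gene's strand are the 250 bases before the start of ENG (chr9:127854659-127854908, minus strand) and ROBO4 (chr11:124897866-124898115, minus strand), which had reads mainly in SK-Hep-1, of TIE1 (chr1:43300732-43300981, plus strand), which had few, and of KDR (chr4:55125596-55125845, minus strand), which had none. Capitals mark the ETS-like motif AGGAAG on either strand (CTTCCT on the reverse).
ENG: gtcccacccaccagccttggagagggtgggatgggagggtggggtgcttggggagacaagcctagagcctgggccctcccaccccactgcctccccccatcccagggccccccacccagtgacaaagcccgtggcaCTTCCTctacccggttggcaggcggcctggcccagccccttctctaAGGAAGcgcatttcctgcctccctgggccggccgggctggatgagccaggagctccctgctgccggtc
ROBO4: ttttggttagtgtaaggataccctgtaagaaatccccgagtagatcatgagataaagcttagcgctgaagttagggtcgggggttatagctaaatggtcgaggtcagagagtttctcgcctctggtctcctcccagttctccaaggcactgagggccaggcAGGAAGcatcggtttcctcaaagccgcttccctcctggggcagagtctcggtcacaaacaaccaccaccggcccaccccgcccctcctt
TIE1: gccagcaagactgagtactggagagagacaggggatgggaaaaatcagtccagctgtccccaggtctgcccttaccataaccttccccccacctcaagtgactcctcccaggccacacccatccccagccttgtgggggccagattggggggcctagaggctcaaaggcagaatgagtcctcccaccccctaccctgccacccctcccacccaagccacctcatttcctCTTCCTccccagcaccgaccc
KDR: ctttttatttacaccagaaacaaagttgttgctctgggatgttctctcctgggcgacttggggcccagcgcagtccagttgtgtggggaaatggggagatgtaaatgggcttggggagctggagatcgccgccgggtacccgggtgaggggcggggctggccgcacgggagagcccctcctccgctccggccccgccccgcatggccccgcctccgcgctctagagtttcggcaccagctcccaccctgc

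AGGAAG lay in the window of ENG at 2 places and in those of ROBO4 and TIE1 at 1 place each. It was in 2 of the 4 windows of ERG, which overlap each other, in neither window of TEK and not in that of KDR. Of 35116 RefSeq promoter windows of the same length, 28.7% held this motif. The other ETS-like motif searched on both strands, CCGGAA, was in none of the 10 member windows and in 14.5% of all windows. The GC box GGGCGG, held by 42.6% of all windows, was found at 2 places in KDR and 1 in ROBO4, and at 4 places in the window of ERG with the most CpG. TATAAA, in 10.7% of all windows, was in none of them, and AGATAA, in 9.17%, was in that of ROBO4, in 1 of 2 for TEK and in 2 of 4 for ERG. The windows differed in base composition. That of KDR had 17 CpG and that of ENG 7, against a median of 11 over all windows, while TIE1 had 1 and ROBO4 10. A match describes the letters and is not a binding site.

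The gene table held 18581156 to 24409250 reads per library. Mitochondrial genes took 47.4% of these reads in HepG2, 34.8% in SK-Hep-1, 29.2% in Hep3B and 17.4% in Huh-7D12. Levels are the authors' normalized values, rescaled to a mean library total of 1000000. On that scale a read weighs 0.0528 in SK-Hep-1 and 0.0425 in Huh-7D12, 0.0547 in HepG2 and 0.0349 in Hep3B. A gene entered the comparison when its highest level was at least 1, which 15850 genes did, and "stands higher" or "stands lower" means a log2(level + 1) at least 2 (4-fold) beyond each of the 3 other lines. On a label check, 10 of 10 hepatocyte markers stood lower in SK-Hep-1, with ALB, HNF4A, APOA1, TTR and FGB at 0 reads there, while the summed level of the list was 32535 to 39630 in the other lines and 40.8 in SK-Hep-1. Most of that remainder was SERPINA1, with 752 of 773 reads. Its level there was 39.7, 30.4-fold (28.3 to 32.7) under Huh-7D12, while each of the other 9 markers had between 0 and 13 reads.

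Of the 10 endothelial identity genes, 3 stood higher in SK-Hep-1: ENG, FLI1 and ROBO4. The other 7 had few or no reads in that line. ERG, KDR, CDH5 and PECAM1 had 0 reads in SK-Hep-1, TEK and VWF had 1 read each, and TIE1 had 33. No member stood lower in SK-Hep-1, and none stood higher or lower in Hep3B, HepG2 or Huh-7D12. For these 7 the rule could give no call in either direction. Their log2(level + 1) was at most 1.45 in any line, under the distance of 2 that a call needs. Over all 15850 genes that entered, 5.37% stood higher and 3.31% lower in SK-Hep-1. For HepG2 the same background was 1.46% and 1.15%. For Huh-7D12 it was 1.52% and 0.536%, and for Hep3B 0.808% and 0.448%. Only 5 of the members reached the entry level in any line (ENG, FLI1, ROBO4, TIE1 and PECAM1). The genes had been proposed with results of these libraries known, so the 3 of 10 describes these members and supports nothing about endothelial genes at large. With a pseudocount of 4 in place of 1, ROBO4 fell just short of the 4-fold rule (1.99 on the log2 scale). Among the genes described further on, those that fell short with that pseudocount, at distances of 0.88 to 1.82 in either direction, were SENCR, C11orf45, TMEM45B, TUSC1, CFAP57, SCNN1A, SMAD6, SMAD9, APLN, CDH4, CDH1 and JUP.

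**Figure D1:**
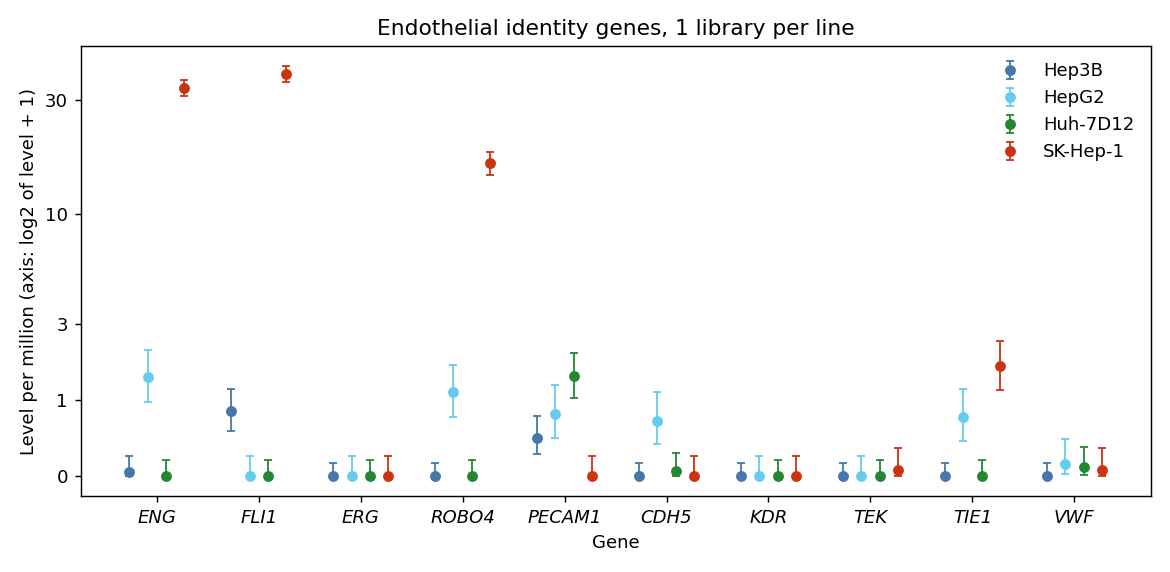
Level per 1000000 of each of the 10 members (vertical axis drawn as log2 of level + 1) in the 4 lines, 1 library each, with exact 95% Poisson intervals as bars. ENG, FLI1 and ROBO4 sit between 16.4 and 38.4 in SK-Hep-1 and at most at 1.48 in any other line, and the other 7 members lie at or under 1.74 in all 4 lines.

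Among the transcription factors, FLI1 and ERG parted. FLI1 (ENSG00000151702, chromosome 11, 128686535 to 128813267, plus strand, GRCh38) is an ETS factor of endothelium and of the megakaryocyte lineage. It had 728 reads in SK-Hep-1, against 0 in Huh-7D12, 0 in HepG2 and 23 in Hep3B. The SK-Hep-1 level was 38.4 (35.7 to 41.3) and that of Hep3B 0.803 (0.509 to 1.20), so that SK-Hep-1 was 47.8-fold (31.6 to 76.0) higher than Hep3B. Against the lines without reads it was at least 234-fold higher (HepG2) and at least 302-fold higher (Huh-7D12), counting 3 reads as the floor. ERG (ENSG00000157554, chromosome 21, 38380027 to 38661780, minus strand), the closest relative of FLI1 and the ETS factor most used as an endothelial marker, had 0 reads in all 4 lines, with exact 95% upper limits of 0.195 in SK-Hep-1 and 0.202 in HepG2.

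The receptors and co-receptors split in the same way. Endoglin, encoded by ENG (ENSG00000106991, chromosome 9, 127815012 to 127854756, minus strand), presents BMP ligands to ALK1-type receptors. ENG had 639 reads in SK-Hep-1, against 0 in Huh-7D12, 27 in HepG2 and 1 in Hep3B. Its level was 33.7 (31.1 to 36.4) in SK-Hep-1 and 1.48 (0.973 to 2.15) in HepG2, a 22.8-fold (15.6 to 34.9) difference, and Hep3B and Huh-7D12 did not differ beyond their counting intervals. ROBO4 (ENSG00000154133, chromosome 11, 124883691 to 124898500, minus strand), a roundabout receptor that stabilises vessels, had 311 reads in SK-Hep-1, against 0 in Huh-7D12, 21 in HepG2 and 0 in Hep3B. SK-Hep-1 was at 16.4 (14.6 to 18.3) and HepG2 at 1.15 (0.711 to 1.75), a 14.3-fold (9.19 to 23.4) difference. HepG2 thus came second for ENG and ROBO4 and had no FLI1 read, whereas Hep3B came second for FLI1.

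TIE1, TEK and KDR are the receptor tyrosine kinases by which endothelial cells respond to angiopoietins and VEGF. TIE1 (ENSG00000066056, chromosome 1, 43300993 to 43323108, plus strand) had 33 reads in SK-Hep-1, against 0 in Huh-7D12, 13 in HepG2 and 0 in Hep3B. SK-Hep-1 and HepG2, at 1.74 (1.20 to 2.45) and 0.711 (0.378 to 1.22), were 2.45-fold (1.26 to 5.07) apart, which is short of 4-fold. TEK (ENSG00000120156, chromosome 9, 27109141 to 27230175, plus strand), the angiopoietin receptor itself, had 1 read in SK-Hep-1 and none elsewhere. KDR (ENSG00000128052, chromosome 4, 55078259 to 55125595, minus strand) had 0 reads in all 4 lines.

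The junction and storage genes were lowest in SK-Hep-1 or close to it. PECAM1 (ENSG00000261371, chromosome 17, 64319415 to 64413776, minus strand), the adhesion molecule CD31, had 0 reads in SK-Hep-1, against 35 in Huh-7D12, 14 in HepG2 and 12 in Hep3B. The Huh-7D12 level was 1.49 (1.04 to 2.07), and PECAM1 was at least 2.65-fold lower in SK-Hep-1 than in Hep3B. The bound was 4.84-fold against HepG2 and 9.39-fold against Huh-7D12. CDH5 (ENSG00000179776, chromosome 16, 66366622 to 66404786, plus strand), VE-cadherin, had 0 reads in SK-Hep-1, against 1 in Huh-7D12, 12 in HepG2 and 0 in Hep3B. VWF (ENSG00000110799, chromosome 12, 5948874 to 6124770, minus strand) had 1 read in SK-Hep-1, 2 each in HepG2 and Huh-7D12 and 0 in Hep3B, levels that do not differ beyond counting error and that could include reads of its partial pseudogene copy. The genes of CD31 and von Willebrand factor, both widely used as endothelial markers in pathology, thus had 0 and 1 read in SK-Hep-1.

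As a sum, the 10 members had 1713 reads in SK-Hep-1, against 38 in Huh-7D12, 89 in HepG2 and 36 in Hep3B. ENG, FLI1 and ROBO4 gave 98.0% (exact binomial interval 97.2 to 98.6) of the SK-Hep-1 reads. The other 7 members together were at 1.85 (1.29 to 2.57) in SK-Hep-1, while HepG2 was at 2.24 (1.61 to 3.04), Huh-7D12 at 1.61 (1.14 to 2.21) and Hep3B at 0.419 (0.216 to 0.732). The intervals of these sums overlap between SK-Hep-1, HepG2 and Huh-7D12, but single members within them went opposite ways: the SK-Hep-1 interval lay under those of HepG2 and Huh-7D12 for PECAM1 and above that of Huh-7D12 for TIE1. A read was seen for 6 members in SK-Hep-1 and for 6 in HepG2, and for 3 each in Hep3B and Huh-7D12. In bulk RNA, fewer cells with a gene and less RNA per cell cannot be told apart.

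Levels of different genes were compared per kilobase of annotated exon. In SK-Hep-1, ENG was at 8.57 per 1000000 and kilobase, FLI1 at 4.70, ROBO4 at 2.33 and TIE1 at 0.260. Among 13396 protein-coding genes that entered, 76.0% lay under ENG, 61.2% under FLI1, 43.2% under ROBO4 and 15.4% under TIE1 in that library. In HepG2, ENG, at 0.375 per 1000000 and kilobase, lay above 20.1% of the same genes and ROBO4, at 0.163, above 15.9%. So ENG and FLI1 were in the middle to upper range of coding genes in SK-Hep-1, and ROBO4 in the middle.

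FLI1 was also the only member that hosted circRNAs in the circRNA table of 12473 back-splices. There were 3, all starting at exon 2 of FLI1 (transcript ENST00000527786.6) and ending at exon 3, 4 or 5, at chromosome 11, 128758115 to 128768272, to 128772985 and to 128782023. Their junctions, which tell the circles from the linear message, are shown 5′ to 3′ from GENCODE 29, with the last 20 bases of the closing exon in lower case and the first 20 bases of exon 2 in capitals.
FLI1 exons 2 to 3: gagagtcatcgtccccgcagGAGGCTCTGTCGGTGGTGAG
FLI1 exons 2 to 4: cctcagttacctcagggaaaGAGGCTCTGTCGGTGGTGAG
FLI1 exons 2 to 5: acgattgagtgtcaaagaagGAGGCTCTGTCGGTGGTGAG

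The exon 2 to 3 and exon 2 to 4 circles had 2 back-splice reads each in SK-Hep-1 and 0 in the other lines. The exon 2 to 5 circle had 1 read in SK-Hep-1 and 2 in Hep3B. In all, FLI1 had 5 back-splice reads (1.62 to 11.7) in SK-Hep-1 and 2 (0.242 to 7.22) in Hep3B, the 2 lines with linear FLI1 reads, and none in HepG2 or Huh-7D12. Per 1000 gene reads this is 6.87 (2.23 to 16.0) in SK-Hep-1 and 87.0 (10.5 to 314) in Hep3B, where the FLI1 gene had only 23 reads, and the intervals overlap. Of the 2610 genes whose SK-Hep-1 reads were within 1.5 times those of FLI1, 17.5% had any back-splice read there and 4.44% had at least 5.

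The wider ETS family placed FLI1 beside another member with a far larger difference. Of 26 other ETS genes listed, 22 had a row and 19 entered, and 2 stood higher in SK-Hep-1 (10.5% against 5.37% of all genes): ETS1 and ELK3. Of these, ETS1 entered through its SK-Hep-1 level alone. ETS1, an ETS factor of lymphoid and endothelial cells, had 6488 reads in SK-Hep-1, against 11 in Huh-7D12, 4 in HepG2 and 1 in Hep3B. At 342 in SK-Hep-1, its level was 733-fold (409 to 1469) that of Huh-7D12. ELK3, an ETS-domain repressor that takes part in vessel formation in mice, was at 126 in SK-Hep-1 and at 11.1 to 15.1 in the other lines, 8.31-fold (7.50 to 9.23) higher. ETV2, which starts the endothelial programme in the mouse embryo, had 7 to 15 reads in each of the 4 lines and did not enter. The median log2 difference between SK-Hep-1 and the mean of the other lines was -0.32 over the 19 genes and -0.03 over all genes that entered.

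**Figure D2:**
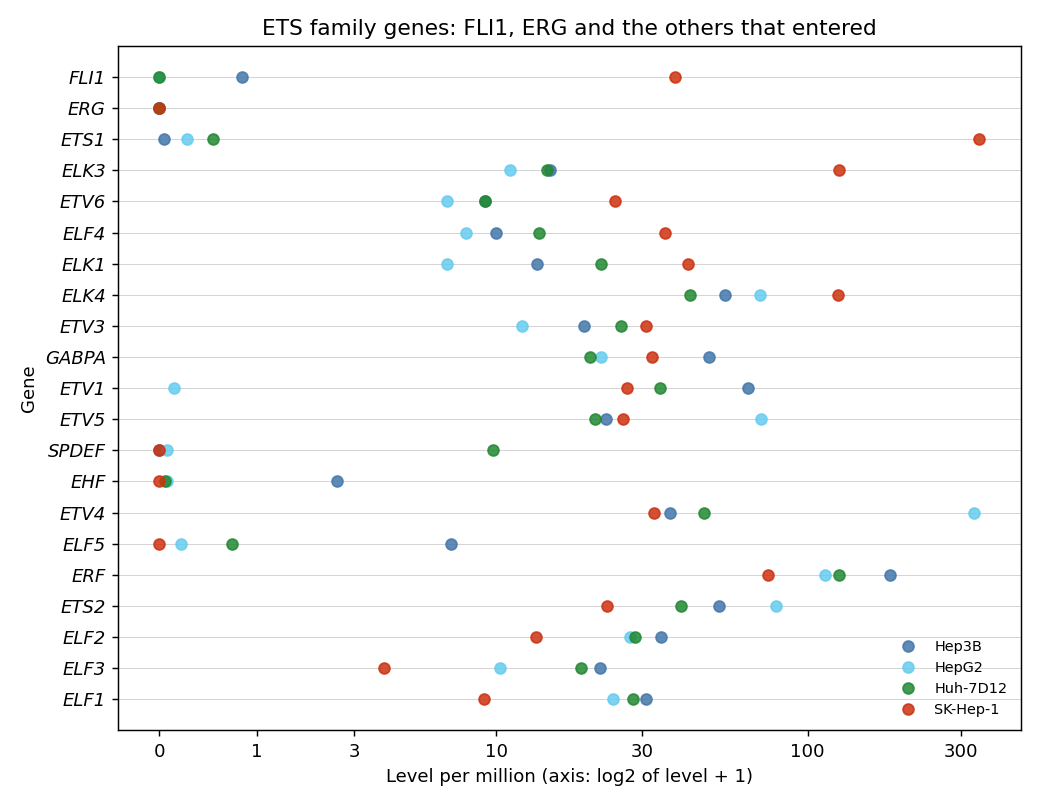
Level per 1000000 (horizontal axis drawn as log2 of level + 1) of FLI1, ERG and the 19 other ETS genes that entered, with 1 point per line. ETS1 at 342 and ELK3 at 126 in SK-Hep-1 are far to the right of the other lines, as FLI1 is at 38.4, while ERG is at 0 in all 4 lines.

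ETS1 is also the nearest gene that entered on the left of FLI1, 99.0 kb away on chromosome 11. Among the 10 nearest neighbours of FLI1 that entered, 5 on each side, 4 stood higher and 1 lower in SK-Hep-1, against 5.37% and 3.31% of all genes. Besides ETS1 these were SENCR, an antisense long noncoding RNA inside the FLI1 locus known from vascular cells, KIRREL3 and C11orf45. All 4 entered through their SK-Hep-1 level alone, so the count describes these genes and supports nothing about the region. SENCR had 119 reads in SK-Hep-1 and 0 in each other line, and was at least 38.3-fold higher. The library kit keeps strand, but no source used here gives the counter or its strand setting, so reads of FLI1 and SENCR may not be fully separated. The KIRREL3 gene, 1683 kb to the left, had 302 reads in SK-Hep-1 and 0 elsewhere (at least 97.2-fold higher), and C11orf45 had 64 against 0 (at least 20.6-fold higher). Not all of the segment followed: KCNJ5, a potassium channel gene that overlaps C11orf45 on the other strand, had 418 reads in Hep3B and 1 in SK-Hep-1, and TMEM45B, with 0 reads in SK-Hep-1, stood at least 26.3-fold lower.

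ROBO4 lies 3.79 Mb from FLI1 on the same chromosome, and its immediate neighbour is its relative ROBO3, 2.22 kb away. ROBO3, an axon guidance receptor, had 603 reads in SK-Hep-1, against 34 in Huh-7D12, 15 in HepG2 and 18 in Hep3B, a 22.0-fold (15.6 to 32.1) difference from Huh-7D12. None of the other 9 neighbours of ROBO4 stood higher or lower there. HEPACAM, the next gene that entered on the other side, had 1714 reads in HepG2, the line with the second highest ROBO4 level, and 0 in SK-Hep-1. ENG had no neighbour among 10 that stood higher or lower, and the antisense gene that overlaps it had 2 reads in SK-Hep-1 against 7 to 39 in the other lines.

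**Figure D3:**
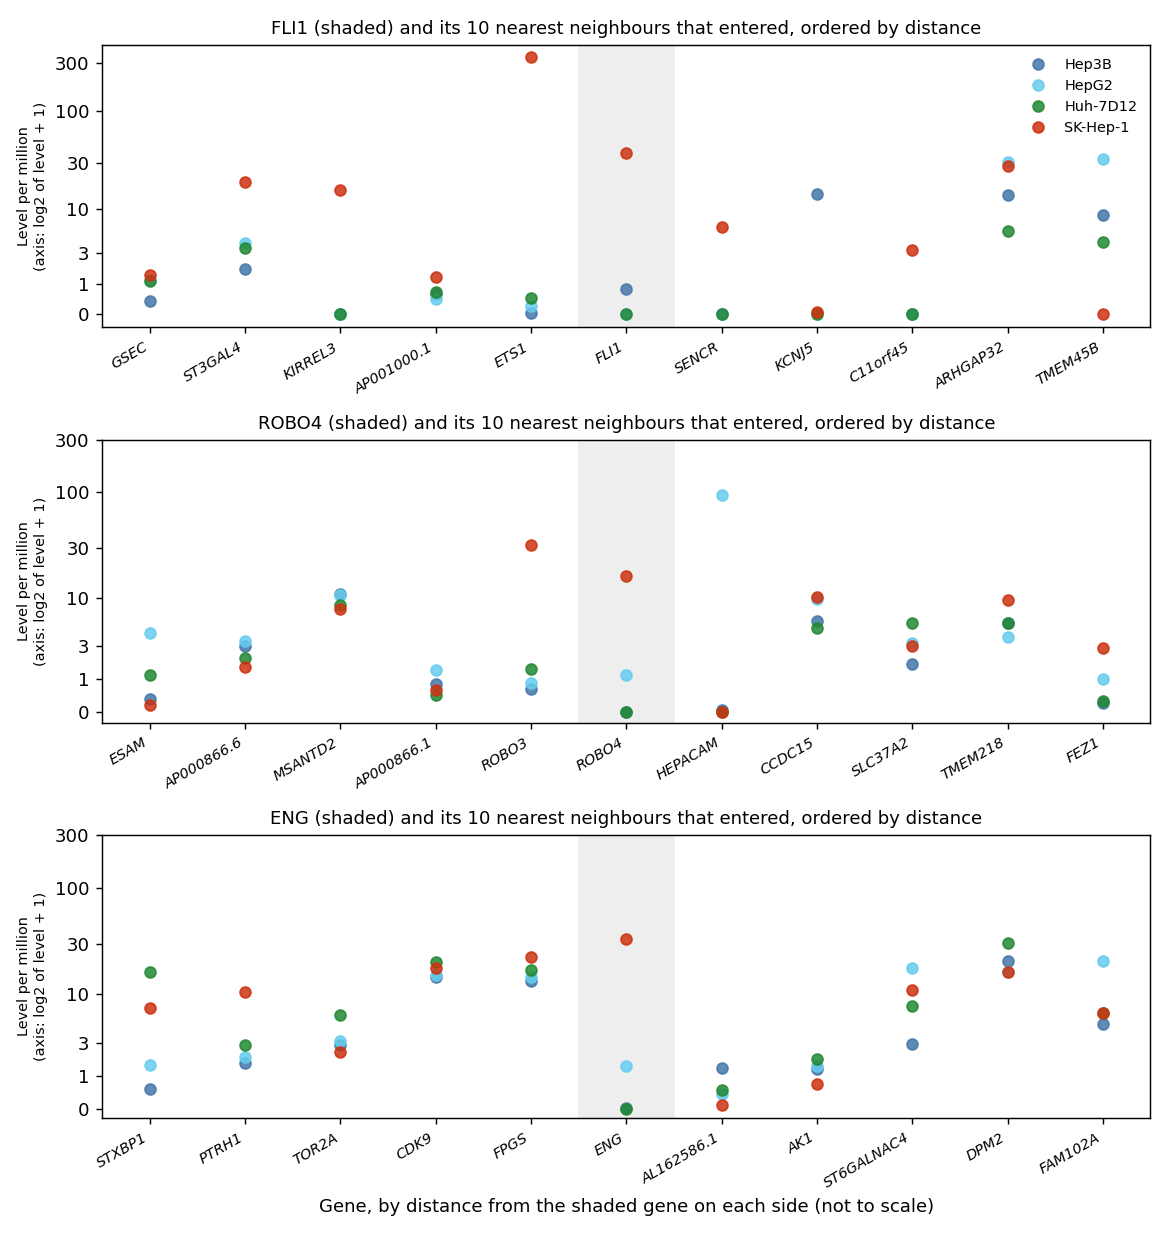
Level per 1000000 (vertical axis drawn as log2 of level + 1) of FLI1, ROBO4 and ENG (shaded) and of the 10 nearest neighbours of each that entered, ordered by distance on either side, with 1 point per line. In SK-Hep-1, ETS1, KIRREL3, SENCR and C11orf45 stand above the other lines around FLI1 and ROBO3 does beside ROBO4, while no neighbour of ENG stands apart.

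Each of the 7 other members had at most 1 neighbour of 10 that stood higher and at most 1 that stood lower. Over all 100 neighbours 9 stood higher and 2 lower in SK-Hep-1, against 5.37% and 3.31% of all genes. With a pseudocount of 4 the counts were 5 higher and 0 lower. Of the 9, 4 lay around FLI1. Those not yet named were SMURF2 near PECAM1, TUSC1 near TEK, CFAP57 near TIE1, and CD9 (higher) and SCNN1A (lower) near VWF. TUSC1, CFAP57 and the 4 genes around FLI1 entered through their SK-Hep-1 level alone, so the share of neighbours standing higher describes these genes only. SMURF2, a ubiquitin ligase gene of the TGF-beta pathway, had 13539 reads in SK-Hep-1, against 323 in Huh-7D12, 763 in HepG2 and 1086 in Hep3B, 17.1-fold (15.9 to 18.4) higher, beside a PECAM1 gene without a read. TUSC1 had 195 reads in SK-Hep-1 against 1 in Huh-7D12 (242-fold (43.0 to 9620)), CFAP57 was 15.1-fold (6.69 to 42.2) and CD9 4.47-fold (4.13 to 4.84) higher, and SCNN1A 40.4-fold (15.6 to 149) lower. The neighbours of ERG, CDH5 and KDR held none. LINC00920, 3.74 kb from CDH5, had 154 reads in SK-Hep-1 and 104 in HepG2, while CDH5 itself had 0 and 12.

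The ligands and partner receptors of the members were then followed in lists. For the VEGF axis 8 of 9 genes entered and 1 stood higher in SK-Hep-1 (12.5%, against 5.37% of all genes). This was VEGFC, the ligand of FLT4, which was at 39.1 there and 4.71 in Hep3B (8.31-fold (6.91 to 10.1)), with 0 reads in HepG2 and Huh-7D12. Its receptor gene FLT4 had 2 reads in SK-Hep-1, and FLT1, the other VEGF receptor gene, had 0 there and 33 in Huh-7D12. The co-receptor gene NRP1 was at 411 in SK-Hep-1 and 119 in Huh-7D12, 3.46-fold (3.31 to 3.61) apart. VEGFA, the ligand of KDR, was at 61.1 in SK-Hep-1, against 53.2 in Huh-7D12, 120 in HepG2 and 96.0 in Hep3B. RNA of the VEGFA gene was thus present in all 4 lines, and the KDR gene had no read in any. Protein was not measured.

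For TEK and TIE1, 3 of 5 listed partners entered, and 1 of these stood higher in SK-Hep-1 (33.3%, against 5.37% of all genes). PTPRB, the gene of the endothelial phosphatase VE-PTP that acts on TEK and VE-cadherin, stood higher in SK-Hep-1. It had 934 reads in SK-Hep-1, against 41 in Huh-7D12, 1 in HepG2 and 14 in Hep3B, and was 28.3-fold (20.7 to 39.7) higher. ANGPT1, the activating ligand, was at 6.86 in SK-Hep-1, against 15.2 for Huh-7D12, and had 0 reads in Hep3B and HepG2. ANGPT2 had 21 reads in Huh-7D12, 6 in HepG2 and 0 in SK-Hep-1.

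Genes of endoglin and BMP signalling were followed next, as RNA only. Activity of the pathway was not measured, and no link of these levels to ENG was tested. Of 18 listed genes 15 entered, and 5 stood lower in SK-Hep-1 (33.3% against 3.31% of all genes) and 0 higher. These were ID1, ID2 and ID3, inhibitors of bHLH factors and direct targets of BMP signalling, the inhibitory SMAD6, also a BMP target, and SMAD9. ID1 had 5 reads in SK-Hep-1, against 6026 in Huh-7D12, 2456 in HepG2 and 1070 in Hep3B. SMAD6 had 4 reads in SK-Hep-1, against 1452 in Huh-7D12, 206 in HepG2 and 213 in Hep3B, and SK-Hep-1 was 35.2-fold (13.6 to 130) under Hep3B. The ID2 gene was 17.0-fold (13.7 to 21.2), ID3 5.98-fold (5.03 to 7.15) and SMAD9 27.1-fold (11.4 to 84.4) lower. ACVRL1, the gene of the receptor ALK1 with which endoglin works in endothelium, had 4 reads in SK-Hep-1, against 22 for Huh-7D12, with none for Hep3B and HepG2. BMPR2, the type II receptor gene, was at 107 in SK-Hep-1 and at most at 38.4 elsewhere, 2.79-fold (2.58 to 3.02) apart. The list's median difference was -1.54, against -0.03 over all genes, and 3 of its genes stood lower with a pseudocount of 4.

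Among SLIT and ROBO genes, 6 of 7 entered and 2 stood higher in SK-Hep-1 (33.3%, against 5.37% of all genes). These were ROBO3 and SLIT3, a ligand of roundabout receptors, which had 391 reads in SK-Hep-1 and 1 read, in HepG2, over the other lines. SLIT3 entered through its SK-Hep-1 level alone, so the share describes these genes only. ROBO1 was lowest in SK-Hep-1, at 44.8 against 89.9 to 341, short of 4-fold. UNC5B, which encodes a ROBO4 partner at the endothelial surface, was at 0.475 in SK-Hep-1, against 46.6 for Huh-7D12.

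Genes of the endothelial surface and junctions outside the members were followed next. Of 32 listed, 26 had a row and 16 entered, and 6 stood higher and 0 lower in SK-Hep-1 (37.5% of those that entered, against 5.37% of all genes). They were CAV1, CAV2, PODXL, PROCR, S1PR1 and THBD. PROCR, S1PR1 and THBD entered through their SK-Hep-1 level alone, and the list was chosen with earlier results known. The share therefore describes these genes and supports nothing about endothelial genes at large. S1PR1, the sphingosine 1-phosphate receptor gene, had 2041 reads in SK-Hep-1, against 10 in Huh-7D12, 0 in HepG2 and 8 in Hep3B, 254-fold (138 to 530) higher. The genes of the protein C system, PROCR (130-fold (78.3 to 232)) and thrombomodulin THBD (102-fold (43.2 to 315)), were higher, as was caveolin CAV1, at 827 against at most 16.8 (49.2-fold (44.5 to 54.5)). PODXL, a sialomucin gene, was 14.3-fold (12.8 to 16.0) and CAV2 6.71-fold higher (2024 reads against at most 375). CD34 had 42 reads in SK-Hep-1 and 1 in the other lines together, and did not reach 4-fold on the log2(level + 1) scale. Some other genes of the list were at or near 0: in SK-Hep-1 CLDN5 had 2 reads, ESAM 3, ICAM2 4, and SELE, SELP, VCAM1, LYVE1 and STAB1 had 0. Of these, CLDN5, SELE, SELP and STAB1 had at most 4 reads in any line. Others went the other way: ICAM1 (395 against at most 157) and CD151 (197 against at most 80.7) were highest in SK-Hep-1, short of 4-fold.

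Of 27 listed genes for secreted and intracellular endothelial proteins, 26 had a row and 17 entered. PLAT and APLN stood higher and JAG1 lower in SK-Hep-1 (11.8% and 5.88%, against 5.37% and 3.31% of all genes). PLAT, tissue plasminogen activator, had 8469 reads in SK-Hep-1, against 4 in Huh-7D12, 20 in HepG2 and 4 in Hep3B, a 409-fold (264 to 669) difference. APLN, a tip-cell peptide gene, was 44.3-fold (14.7 to 219) higher with 88 reads, and it entered through its SK-Hep-1 level alone. The NOTCH ligand gene JAG1 was at 5.80 against 116 to 177 in the other lines, 19.9-fold (16.5 to 24.3) lower. EDN1 (66.3 against at most 16.5), F8 (5.54 against at most 0.892) and ESM1 (29 reads against 0) were highest in SK-Hep-1. They fell short of 4-fold on the log2(level + 1) scale. EPHB4 (33.1 against at least 50.7) and DLL4 (0 reads against at least 5) were among those lowest there. NOS3, endothelial nitric oxide synthase, was highest in HepG2, at 6.29, and at 1.95 in SK-Hep-1.

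**Figure D4:**
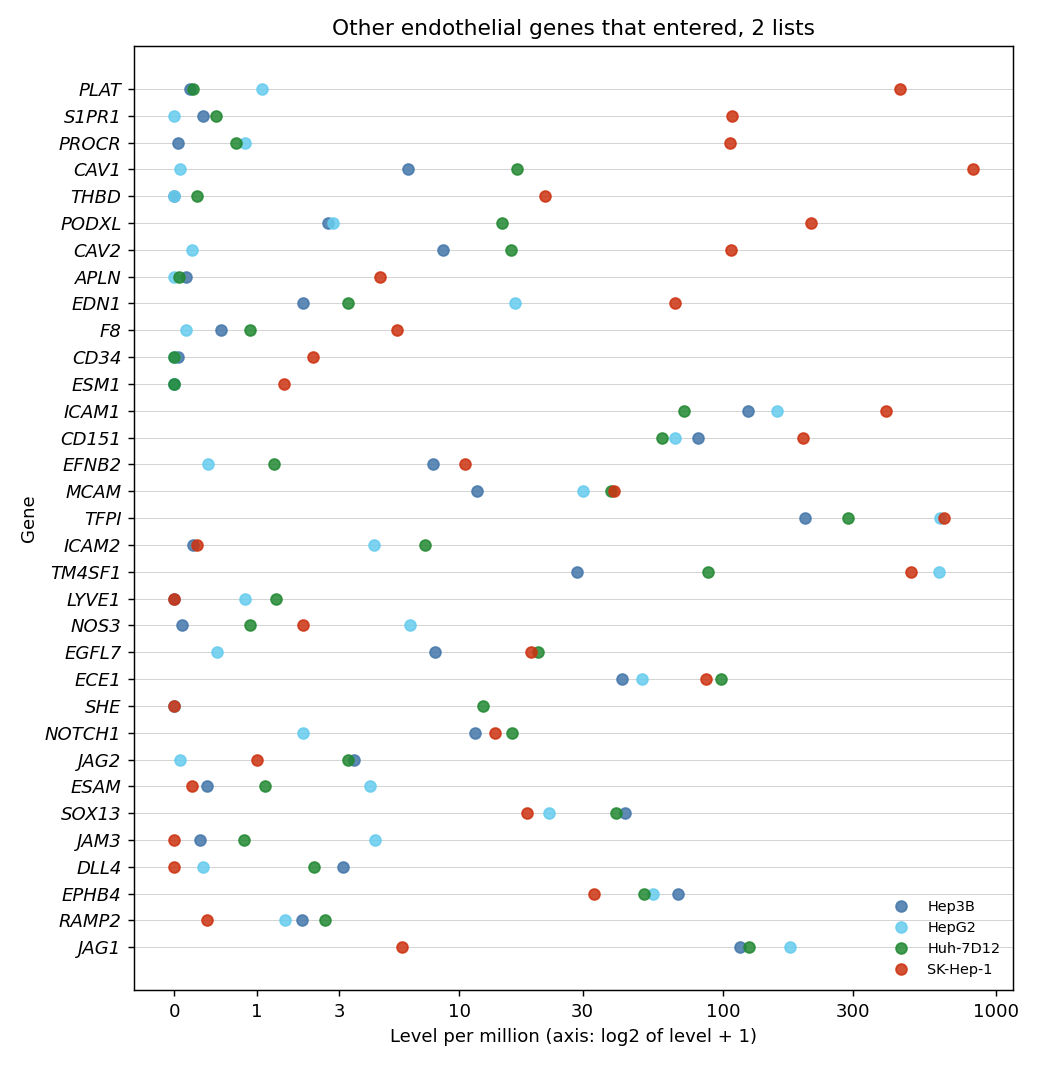
Level per 1000000 (horizontal axis drawn as log2 of level + 1) of the 33 genes that entered from the lists of surface and junction and of secreted and intracellular endothelial genes, sorted by distance of SK-Hep-1 from the nearest other line, with 1 point per line. The top 8 genes, from PLAT to APLN, lie at least 4-fold to the right in SK-Hep-1, and JAG1 at the foot lies to the left.

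Among the remaining endothelial transcription factors the count depended on the pseudocount. Of 22 listed, 16 entered and 0 stood higher in SK-Hep-1, against 5.37% of all genes, a share that leaves 0 of 16 uninformative. The count was 4 with a pseudocount of 0.25, 2 against the mean of the other lines, and 1 each with median-of-ratios factors, without HepG2 and without Huh-7D12. PROX1, a factor of lymphatic endothelium and of hepatocytes, stood lower (1 read against 1954 to 7527). It was the only 1 of the 16 to do so (6.25%, against 3.31% of all genes). SOX7 (47 reads against at most 8), NR2F2 (74.5 against at most 19.3) and FOXC1 (18.5 against at most 3.88) were highest in SK-Hep-1. They fell short of 4-fold on the log2(level + 1) scale. FOXC2 had 27 reads and FOXF1 25, with 0 in each other line, while TAL1 had 0 reads and LMO2 4. GATA2 (3.90 against at least 12.9) and HHEX (15.5 against at least 37.2) were among those lowest in SK-Hep-1, also short of 4-fold. The list of liver sinusoidal endothelium was nearly empty. Of 15 listed, 10 had a row and 4 entered, none of which stood higher or lower; the summed level of the list was 3.77 to 5.37 in the 3 other lines and 6.96 in SK-Hep-1. Of its 132 reads in SK-Hep-1, 105 were of F8, the gene of coagulation factor VIII. Of 11 partners of VWF and its storage granules, 6 entered and none stood higher or lower. Over all genes 5.37% stood higher and 3.31% lower, and lists of 4 and 6 genes are too small to differ from those shares by having none.

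VE-cadherin was set beside the other cadherins. Of 11 genes of cadherins and catenins 9 entered, and CDH13 and CDH4 stood higher and CDH1 and JUP lower in SK-Hep-1. This was 22.2% in each direction, against 5.37% higher and 3.31% lower over all genes. Both genes that stood higher entered through their SK-Hep-1 level alone, so that share describes these genes only. CDH13, the T-cadherin gene, expressed in endothelium and smooth muscle, had 2227 reads in SK-Hep-1 and 0 in the other 3 lines (at least 716-fold higher), and CDH4 had 70 against 0 (at least 22.5-fold higher). CDH1, epithelial cadherin, had 0 reads in SK-Hep-1, at least 45.1-fold lower, and CDH2, neural cadherin, was at 25.4 there and at 21.8 to 57.6 in the other lines. SK-Hep-1 thus had reads of CDH2, CDH3 (3 reads), CDH4, CDH6 and CDH13 and none of CDH1, CDH5 or CDH11.

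Genes of other cell types that share members moved with ENG and FLI1 to different extents. Of 22 mesenchymal stromal and pericyte markers, 1 of which has 2 rows, 21 rows entered. Of these rows 6 stood higher in SK-Hep-1 (28.6%, against 5.37% of all genes): THY1, COL3A1, COL6A2, VIM, CD44 and AXL. THY1, COL3A1 and COL6A2 entered through their SK-Hep-1 level alone. The summed level of that list was 11427 in SK-Hep-1, against 3241 in Huh-7D12, 8947 in HepG2 and 2147 in Hep3B. Single genes carried these sums: FN1 was 8739 of the HepG2 sum and 1837 of that of SK-Hep-1, and VIM was 6046 of the latter. THY1 and NT5E, which with ENG are the usual surface markers of mesenchymal stromal cells, were at 52.8 (0 reads in the other lines) and at 230 (17.9 to 93.1 in the other lines), while PDGFRA, COL1A2, DES and DCN had 0 reads in SK-Hep-1. Their part in the ENG result was not tested. Of 16 haematopoietic and megakaryocyte markers 13 had a row and 5 entered, and none stood higher or lower in SK-Hep-1. Against 5.37% higher and 3.31% lower over all genes, 5 genes are too few for this to be informative. The defining gene PTPRC had 1 read there, CD53 and PF4 had 0, ITGA2B 6, VAV1 1. Others had more reads there than in any other line, short of 4-fold on the log2(level + 1) scale: RUNX1 was at 45.3 against at most 14.6, CD33 had 22 reads against at most 3, and KIT had 18 against 0. The list summed to 52.9 in SK-Hep-1 and to 18.2 to 82.4 in the other lines.

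**Figure D5:**
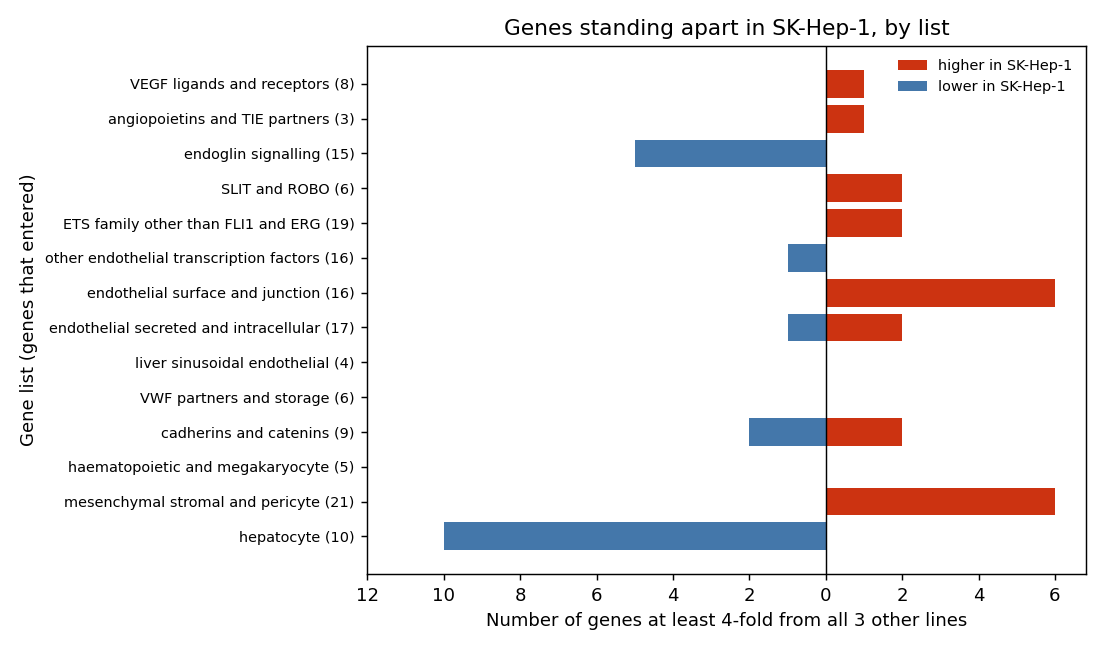
Number of genes of each list that stood at least 4-fold higher (right) or lower (left) in SK-Hep-1 than in all 3 other lines, with the number that entered in brackets. The surface and junction list and the mesenchymal list have 6 genes each to the right, the endoglin signalling list has 5 to the left, and all 10 hepatocyte genes lie to the left.

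The genes whose levels across the 4 lines were most like those of the measured members came from many functions. Likeness was the Euclidean distance between log2(level + 1) over the 4 lines, and 3 genes were taken per member. For FLI1 these were PTPRD (0.20), IL1RAPL1 (0.29) and FAR1 (0.37), for ENG CPA4 (0.32), VNN1 (0.38) and APOBEC3G (0.47), and for ROBO4 LINC00973 (0.32), MAGEH1 (0.38) and KRT80 (0.49). For TIE1 they were RPSAP54 (0.25), CFLAR-AS1 (0.25) and LY96 (0.28), and for PECAM1 LINC01503 (0.15), FRG1DP (0.24) and SYNGR3 (0.27). No member was among the genes nearest to another.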

How the data were processed

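The 4 libraries were stranded, ribosome-depleted and sequenced as 100-bp paired ends, per the labels. STAR 2.6.1d and hg38 stand, without a role, in the submitters' processing notes; no source used here gives the counter, annotation or normalization method. The authors deposited a normalized signal per gene and library, and dividing each library by its smallest value above 0 gave whole numbers for 100% of values (tolerance 0.001). Reads in the text are these numbers. Levels are the deposited values rescaled to a mean library total of 1000000, with a pseudocount of 1 on the log2 scale and an entry level of 1. All 29670 identifiers matched GENCODE 29. Intervals are exact Poisson (levels) or Clopper-Pearson (ratios, shares); folds against 0 reads use a floor of 3 reads per library and, against the nearest line, the largest floor. Empty circRNA values were taken as 0. Genes named are the members, the list genes standing higher or lower and up to 4 others per list with the largest distance, neighbours that stand higher or lower, and the 3 most alike; the remaining genes were named after their values were seen. Members and all 14 lists were chosen with earlier results of these data known; 2 genes were taken out of the lists and their counts and are not reported here. The comparison was tested on simulated counts. Python 3.11.15, pandas 2.3.3 and scipy 1.17.1 were used.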

Additional observations from a re-analysis of the deposited data

How the results depend on the processing

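The 3 members standing higher in SK-Hep-1 did so under each alternative except a pseudocount of 4, where ROBO4 lay at 1.99 on the log2 scale and only ENG and FLI1 (2 members) stood higher. The alternatives were pseudocounts of 0.25 and 4, an entry level of 5 or none, scaling to reads outside mitochondrial genes or by median-of-ratios factors, comparison with the mean of the other lines, and leaving out Hep3B, HepG2 or Huh-7D12. Over these the ENG distance was 2.78 to 5.07, that of FLI1 3.14 to 5.30 and that of ROBO4 1.99 to 4.12. Against the mean of the other 3 lines, 1 member stood lower in Hep3B (ENG), 1 in HepG2 (FLI1) and 2 in Huh-7D12 (ENG and FLI1), because SK-Hep-1 is then among the lines averaged. Over all genes, the number standing higher in SK-Hep-1 was 498 with a pseudocount of 4 and 1384 against the mean, in place of 851. The number standing lower was 801 with a pseudocount of 0.25, 255 with 4, 1072 against the mean and 814 without HepG2, in place of 525. With a pseudocount of 4, SENCR (1.36), C11orf45 (0.88), APLN (1.07), CDH4 (0.94), TUSC1 (1.82), CFAP57 (1.05), SMAD6 (-1.44), SMAD9 (-1.39), CDH1 (-1.48), JUP (-1.74), SCNN1A (-1.57) and TMEM45B (-1.03) fell short of 4-fold, and CD9 did (1.99) with scaling outside mitochondrial genes. List counts moved too: the sinusoidal and the VWF partner lists each had 1 gene standing higher with a pseudocount of 0.25, against the mean and without Huh-7D12, the haematopoietic list had 1 against the mean and without HepG2, and without Huh-7D12 the VEGF and angiopoietin lists had 3 each. With a pseudocount of 4 the cadherin list had 1 higher and 0 lower, and the secreted list 1 higher. Of the neighbours, 5 stood higher and 0 lower with that pseudocount, while 6 stood lower against the mean and 4 without HepG2. No direction reversed. No paired analysis was possible because the labels give 1 library per line, and no count model could be fitted for the same reason. For a gene at 0 reads the exact 95% upper limit of the level is 0.195 in SK-Hep-1, 0.202 in HepG2, 0.157 in Huh-7D12 and 0.129 in Hep3B.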
